A study of Caenorhabditis elegans with 2 samples.

Results

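The genes described here are the 5 actin genes *act-1* to *act-5* of the nematode *Caenorhabditis elegans*, chosen by name among 19973 protein-coding genes and set out as 3 kinds of locus: *act-4* alone on chromosome X, *act-1*, *act-2* and *act-3* together on chromosome V, and *act-5* alone on chromosome III. The data were chromatin immunoprecipitation sequencing (ChIP-seq) peak lists for EGL-18, a transcription factor of the GATA family that acts in epidermal seam cells, in whole young adults 63 h after starved first-stage larvae, synchronised by bleaching, were set growing. There was 1 group of 2 biological replicates of strain RW12252, in which CRISPR placed a TY1::EGFP::3xFLAG tag in *egl-18* on chromosome IV (allele st12252), and an antibody to GFP precipitated the fusion protein. Both replicates carried the tag, and no library without it was analysed here. Whole animals were used, so a peak cannot be placed in a tissue, and with 1 group of 2 samples no test between genes was made.

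Actin is the protein of the thin filaments of muscle and of the microfilaments that give every animal cell its shape. In *C. elegans*, *act-1* to *act-4* are known as the actins of muscle and of many other cells, and *act-5* as a divergent actin of the intestine, where it builds the microvilli of the brush border. GATA factors bind DNA at the letters GATA. Genes of one family can share long stretches of sequence, and short reads from such stretches fit several places.

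The proteins of *act-1* to *act-4* were close to identical (99.2% to 100% by pair), and their coding sequences were 91.9% to 100% identical. *act-1* and *act-3* were the same in all 1131 coding bases (stop codon included), so they encode the same 376 residues. *act-4* differed from both in 66 bases and 1 residue and from *act-2* in 92 bases and 2 residues, and *act-2* differed from *act-1* in 43 bases and 3 residues. *act-5* stood apart, with 85.1% of coding columns identical to *act-4* and 28 residue differences from it. These counts come from Ensembl gene models on WBcel235, which is the same assembly as the ce11 build of the peak lists.

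The gene models also set what "upstream" means at each locus. *act-4* (WBGene00000066) spans chrX:4960621-4964413 on the plus strand, *act-1* (WBGene00000063) chrV:11081052-11082415 on the plus strand, *act-2* (WBGene00000064) chrV:11076777-11078154 on the minus strand, *act-3* (WBGene00000065) chrV:11071690-11074498 on the minus strand and *act-5* (WBGene00000067) chrIII:13604412-13606066 on the minus strand. The cluster covers 10726 bp. *act-1* and *act-2* point away from each other across 2897 bp, so that 2 peaks between them belong to both. *act-3* follows *act-2* on the same strand after 2278 bp. The model of *act-5* begins at its start codon, so distances there are counted from that codon.

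Distances are those of a peak's summit from the gene start, negative when upstream. Sequences at the summits that the results below turn on are shown from the assembly, 5′ to 3′ on the strand of the gene and within 75 bp of the summit. In all but the *act-2* sequence, capitals mark a GATA site, defined as GATA with A or T before it and A or G after it, on either strand (TTATCA is TGATAA read on the other strand). The *act-4* sequence (chrX:4960482-4960620) ends at the last base before the gene, and lies under the strongest peak of the 5 genes. The *act-1* sequence is chrV:11080410-11080560. The first *act-3* sequence (chrV:11075673-11075823) lies under its highest peak, and the second (chrV:11076528-11076678) under the far upstream peak that passed the authors' threshold. The *act-5* sequence (chrIII:13605720-13605870) lies in its first coding exon. In the *act-2* sequence (chrV:11077359-11077509), from its second coding exon, capitals instead mark the 132 of 151 bases that lie in stretches of at least 36 bases found unchanged in *act-1* and *act-3*.
act-4 at -64: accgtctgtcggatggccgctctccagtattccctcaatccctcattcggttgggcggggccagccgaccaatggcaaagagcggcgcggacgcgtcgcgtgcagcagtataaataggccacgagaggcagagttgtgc
act-1 at -567: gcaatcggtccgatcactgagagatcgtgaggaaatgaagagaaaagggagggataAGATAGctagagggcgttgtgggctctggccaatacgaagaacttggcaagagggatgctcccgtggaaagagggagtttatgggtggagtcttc
act-3 at -1250: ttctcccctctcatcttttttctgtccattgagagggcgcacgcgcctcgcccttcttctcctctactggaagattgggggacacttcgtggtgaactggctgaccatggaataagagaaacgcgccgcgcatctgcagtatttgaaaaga
act-3 at -2105: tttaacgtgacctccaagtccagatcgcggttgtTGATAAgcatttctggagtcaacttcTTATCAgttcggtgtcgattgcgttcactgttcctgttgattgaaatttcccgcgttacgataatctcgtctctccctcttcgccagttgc
act-5 at 271: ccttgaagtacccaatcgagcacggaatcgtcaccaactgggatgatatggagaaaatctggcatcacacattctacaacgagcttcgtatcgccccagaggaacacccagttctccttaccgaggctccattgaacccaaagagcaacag
act-2 at 720: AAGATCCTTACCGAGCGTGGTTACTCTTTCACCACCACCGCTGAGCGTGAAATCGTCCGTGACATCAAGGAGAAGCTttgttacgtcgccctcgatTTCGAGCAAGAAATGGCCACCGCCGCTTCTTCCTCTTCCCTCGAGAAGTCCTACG

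Of the 5 actin genes, *act-4* and *act-3* had a peak in the series thresholded list, which holds 699 peaks and was derived from both replicates, within the gene or 2000 bp upstream. Of all protein-coding genes 3.77% had such a peak. In the list that the authors label conservative, *act-4* alone of the 5 had a peak, against 3.28% of all genes. Neither replicate's own thresholded list held a peak at any actin gene, where the shares of all genes were 1.1% in replicate 1 and 1.28% in replicate 2. With 5 genes chosen in the knowledge of earlier results, nothing is read from these shares beyond their size.

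The ranked list of the series is much longer and shows where weaker peaks lay. It holds 117695 peaks that cover 32.4% of the genome by summed width, and 93.4% of all protein-coding genes had at least 1 of them, as did all 5 actin genes. A peak in that list is therefore common, and its height and score carry the information. The height, called signal here, is the authors' value on a scale that is not stated. The score is derived from the irreproducible discovery rate (IDR), which is low where a peak ranks both high and alike in 2 inputs. A score of 540 is a rate of 0.05 and 830 a rate of 0.01. A peak scoring 540 or more lay at 3 of the 5 genes (*act-4*, *act-1* and *act-3*) and at 12.9% of all genes.

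There were 35 different ranked peaks at the actin genes, of which 11 were at *act-4*, 16 in the cluster and 8 at *act-5*. Their signals ran from 2.36 to 79.1 with a median of 27.5, against a median of 22.9 over the whole list. By median, the cluster peaks were the highest (37.7), followed by those of *act-4* (27.5) and *act-5* (16.7). Of the 35, 5 scored 540 or more, against 2820 of all 117695 ranked peaks. Of these 5, 4 were in the cluster and 1 at *act-4*.

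**Figure D1:**
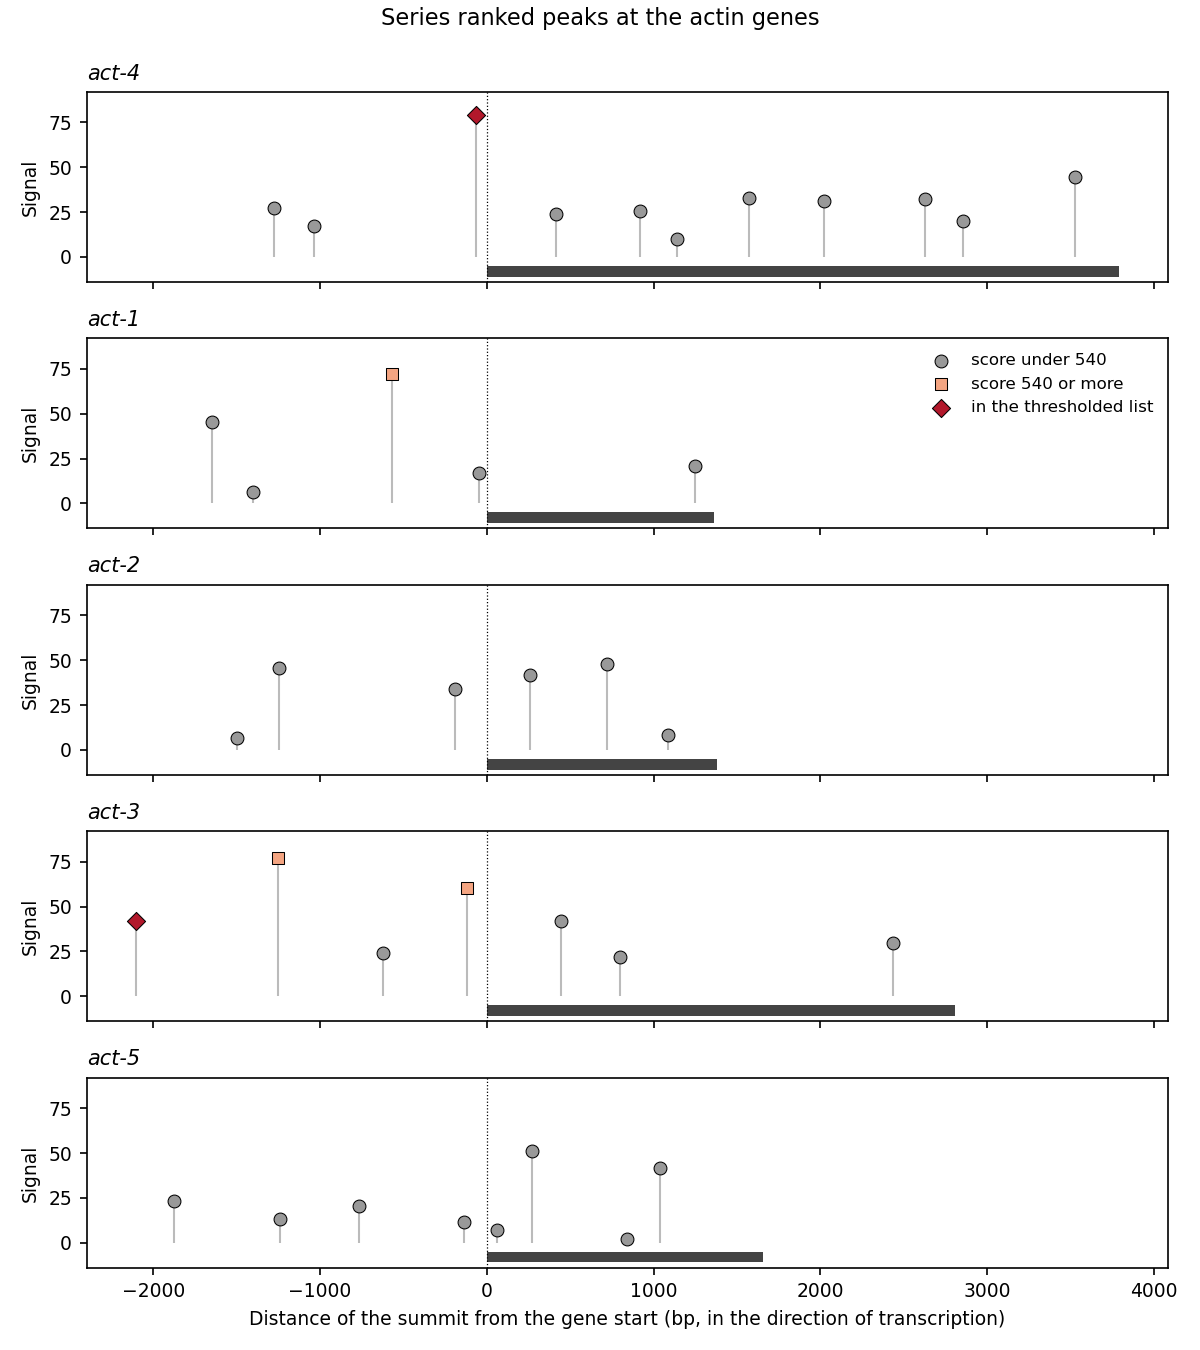
Signal of every series ranked peak (vertical axis, authors' units) by the distance of its summit from the gene start in bp (horizontal axis), with *act-4* at the top, the 3 cluster genes below it and *act-5* last. The dark bar is the gene body, and symbols give the score class. The highest peaks of *act-4* (79.1), *act-3* (77.2) and *act-1* (71.9) lie before the start, while those of *act-5* (51.0) and *act-2* (47.9) lie inside the gene.

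At *act-4*, the widely used actin on X, the highest of 11 ranked peaks lay at the promoter. The strong peak (chrX:4960419-4960694) had its summit 64 bp before the start, a signal of 79.1 and a score of 908. It ranked 492 of 117695 ranked peaks by signal and 388 of the 699 thresholded peaks, so it was a middling member of that list, and it was number 92 of the 157 thresholded peaks on X. Among the 4409 ranked peaks with a summit up to 200 bp before the start of a protein-coding gene, whose median signal was 22.6, it ranked 52.

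Both replicates had the *act-4* promoter peak at about the same place in their ranking. Its signal was 38.9 in replicate 1 (rank 1155 of 64911) and 36.4 in replicate 2 (rank 990 of 54253), and the summits lay 13 and 33 bp further towards the gene than in the series list. In both it stood among the top 2% of peaks, at 1.78% in replicate 1 and 1.82% in replicate 2. Within each replicate the score was lower, 274 in replicate 1 and 382 in replicate 2, and neither reached 540. The passing score of the promoter peak thus belongs to the lists made from both replicates.

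The other 10 peaks of *act-4* had signals from 10.2 to 44.7 and scores from 60 to 343, and 7 of them were above the list median of 22.9. The highest of them (44.7) had its summit 3530 bp after the start, in the 3′ UTR. The one 2020 bp after the start, in the long first intron, had a signal of 13.1 in replicate 1 (rank 48812), with its summit 180 bp away, and 36.2 in replicate 2 (rank 1006), close to the 36.4 of the promoter peak there. It lies 234 bp before the start of the shorter annotated *act-4* transcript, which begins in the second exon. Its score was 552 in replicate 2 and 18 in replicate 1, so only replicate 2 held it with a score above 540. In the series list it had a signal of 31.1 and a score of 329.

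In the cluster, the highest peak was that of *act-3* 1250 bp before its start (chrV:11075610-11075885, signal 77.2). Its score of 698 left it below 830, although 67.7% of the 217 ranked peaks with a signal within 5% of it are in the thresholded list. The replicates differed at this place. The signal was 55.3 in replicate 1 (rank 259, score 731) and 24.8 in replicate 2 (rank 7468, score 26). Among the 5 genes, 55.3 was the highest signal of any peak in either replicate's ranked list. The next highest in replicate 1 was also upstream of *act-3*, at -1778 (signal 40.7, rank 908, score 169). No peak of the series ranked list or of replicate 2 overlapped it.

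A second *act-3* peak lay at the promoter of its longer transcripts, 120 bp before the start (signal 60.7, score 573). Its signal was 32.9 in replicate 1 (rank 3168, summit at -184) and 30.9 in replicate 2 (rank 2379, summit at -64). In the series list it ranked 137 of the 4409 peaks just before gene starts. A shorter *act-3* transcript begins 1234 bp further in, and the nearest peak before that start, 437 bp away, had a signal of 22.04.

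The *act-3* peak that passed the threshold was a different one. It lay 2105 bp before the start of *act-3* (chrV:11076465-11076740), overlapped the 2000 bp window by 34 bp, and had its summit 174 bp past the 3′ end of *act-2*. Its signal of 42.03 ranked 12470 in the ranked list, and 18 of the 699 thresholded peaks had a lower one. Of the 5250 ranked peaks within 5% of its signal, 2 are in the thresholded list. Its score was 956 in this ranked list and 190 in the other series ranked list. Both lists derive from both replicates, but which inputs each score compares is not labelled, so what either score says of the agreement between replicates is not known. In the replicates, the signal was 14.9 in replicate 1 (rank 42889) and 33.2 in replicate 2 (rank 1587), so the height was high in 1 of the 2. It is absent from the conservative list. There the *act-4* promoter peak has its score of the other ranked list (922), so this absence may only repeat the score of 190.

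**Figure D2:**
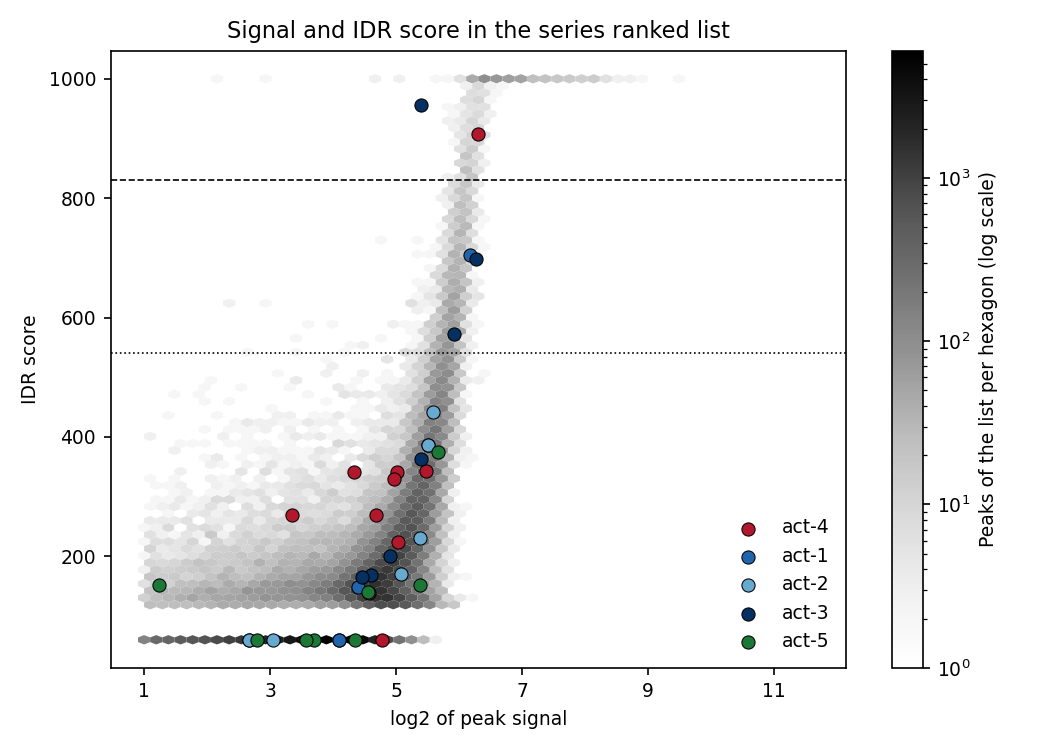
IDR score (vertical axis) against the base-2 logarithm of signal (horizontal axis) for the series ranked list, with shading for the number of peaks and points for the actin gene peaks. The dashed line is a score of 830 and the dotted line 540. The *act-4* promoter peak (score 908) lies on the band of the other peaks, and the *act-3* peak with a score of 956 lies to its left, at a lower signal. The 2 peaks shared by *act-1* and *act-2* are drawn in the colour of *act-2*.

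*act-1* had 1 high peak, 567 bp before its start (chrV:11080347-11080622, signal 71.9, score 704). It ranked 733 by signal. Replicate 1 gave 29.6 (rank 5647) and replicate 2 gave 36.03 (rank 1038). Of the 348 ranked peaks with a signal within 5% of it, 39.4% are in the thresholded list, and it is not. The peak nearest to the *act-1* start, 45 bp before it, had a signal of 17.1, and replicate 2 had none there.

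*act-2* had no peak with a score of 540 or more. Its highest peak (chrV:11077296-11077571, signal 47.9, score 441) had its summit 720 bp after the start, in the second coding exon, with signals of 28.4 in replicate 1 (rank 6900) and 25.3 in replicate 2 (rank 6826). The peak 260 bp after the start was present in replicate 2 alone, with a signal of 34.9 (rank 1215). Before the start, the peak at 189 bp had a series signal of 33.7 and no peak in either replicate's ranked list. The peak shared with *act-1* (chrV:11079265-11079540) had a signal of 45.6.

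At *act-5*, the intestinal actin, the series ranked peak nearest before the start, here the start codon, was the lowest of the 5 genes. It lay at 138 bp with a signal of 11.8, against 17.1 at *act-1* and a median of 22.6 for peaks just before gene starts. Further upstream, the weaker peak shared by *act-1* and *act-2* was lower (6.35). All 4 upstream peaks of *act-5* were between 11.8 and 23.5. The outermost of these, 1877 bp before the start, overlaps the start of *shpk-1* on the other strand. Its highest peak (chrIII:13605657-13605932, signal 51.0, score 374) was 271 bp after the start, in the first coding exon, with a signal of 30.2 in replicate 1. The replicate 2 peak that overlaps it (20.4) had its summit 169 bp away, nearer to the series peak 63 bp after the start (39 bp) and also overlapping that at -138, so it is not clearly the same peak.

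The strongest signal of each gene gives the order of the loci. In the series list it was 79.1 for *act-4*, 77.2 for *act-3*, 71.9 for *act-1*, 51.0 for *act-5* and 47.9 for *act-2*, against a median of 41.5 over the 18664 genes with a peak. Among all protein-coding genes, *act-4* stood in the top 2.35%, *act-3* in the top 2.61%, *act-1* in the top 3.66%, *act-5* in the top 22.01% and *act-2* in the top 28.7%. The windows of *act-4* (5793 bp) and *act-3* (4809 bp) are longer than the median window of all genes (4027 bp), and those of the other 3 genes are shorter.

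The order changed between replicates. In replicate 1 the strongest signals were 55.3 for *act-3*, 38.9 for *act-4*, 30.2 for *act-5*, 29.6 for *act-1* and 28.4 for *act-2*. In replicate 2 they were 36.4 for *act-4*, 36.03 for *act-1*, 34.9 for *act-2*, 33.2 for *act-3* and 20.4 for *act-5*. The strongest peak of a gene was not always at the same place in both. Its summit lay at -1240 in replicate 1 and -2106 in replicate 2 for *act-3*, at 714 and 254 for *act-2*, and at 295 and 102 for *act-5*. The orders of genes therefore do not always compare the same peaks. Of the 10 pairs of genes, 5 had the same order in both replicates: *act-4* above *act-1*, *act-2* and *act-5*, *act-1* above *act-2*, and *act-3* above *act-5*. The order of *act-4* and *act-3*, neighbours at the head of the series list, was not the same in both, nor was that of *act-3* and *act-1* or of *act-5* and *act-2*. The low place of *act-5* was that of replicate 2, where it stood in the top 52.6% of genes, while in replicate 1 it stood in the top 23.1%.

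**Figure D3:**
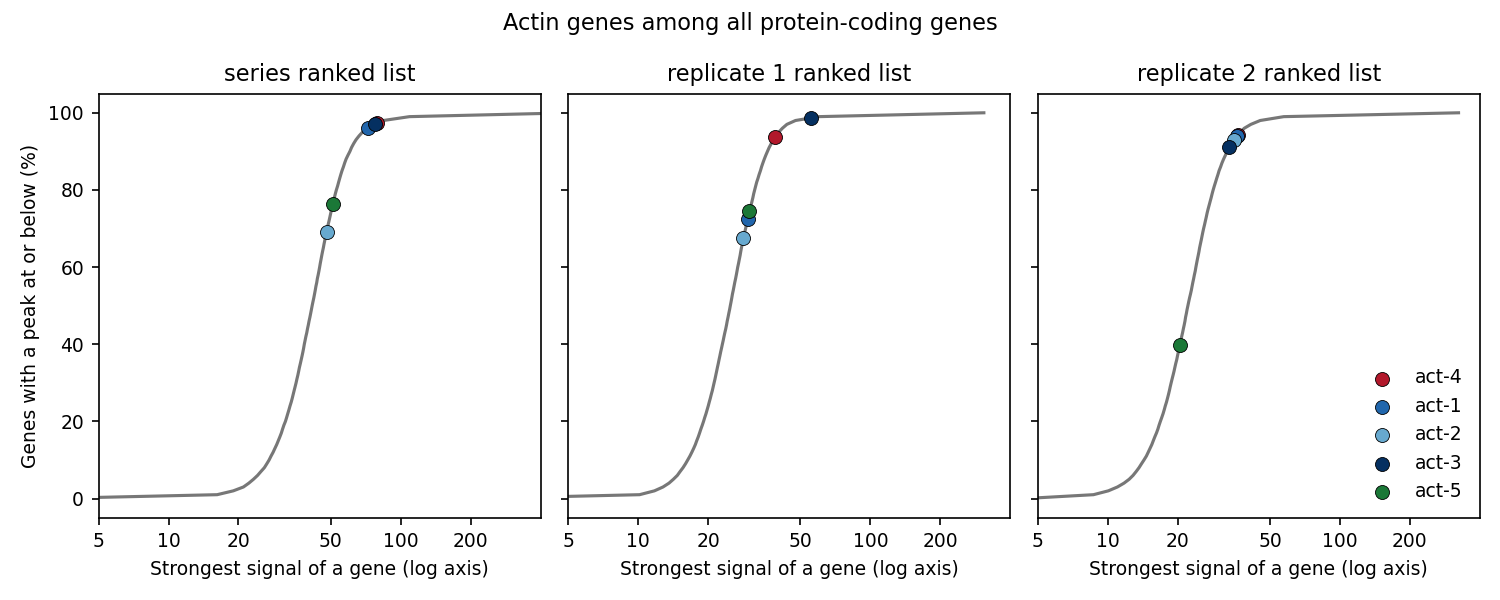
Share of protein-coding genes with a peak whose strongest signal is at or below a value (vertical axis, %) against that signal (horizontal axis, log scale), for the series ranked list (left), that of replicate 1 (middle) and that of replicate 2 (right), with the 5 actin genes as points on the curve. In replicate 2 the points of *act-4* (36.4) and *act-1* (36.03) lie on each other, and *act-5* (20.4) lies below the median of 22.2.

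Over all 35 peaks, 28 overlapped a peak of replicate 1, 23 a peak of replicate 2 and 17 both, while 1 overlapped neither. The share in both was 48.6% of the actin gene peaks and 26.6% of all ranked peaks. A replicate's peak can overlap more than 1 series peak. By locus the count was 7 of 11 at *act-4*, 8 of 16 in the cluster and 2 of 8 at *act-5*. The 2 at *act-5*, at 271 and 63 bp after the start, overlap the same peak of replicate 1 (30.2) and the same peak of replicate 2 (20.4). The actin gene peaks also had a higher median signal than the list, and the part of height in this share was not tested.

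**Figure D4:**
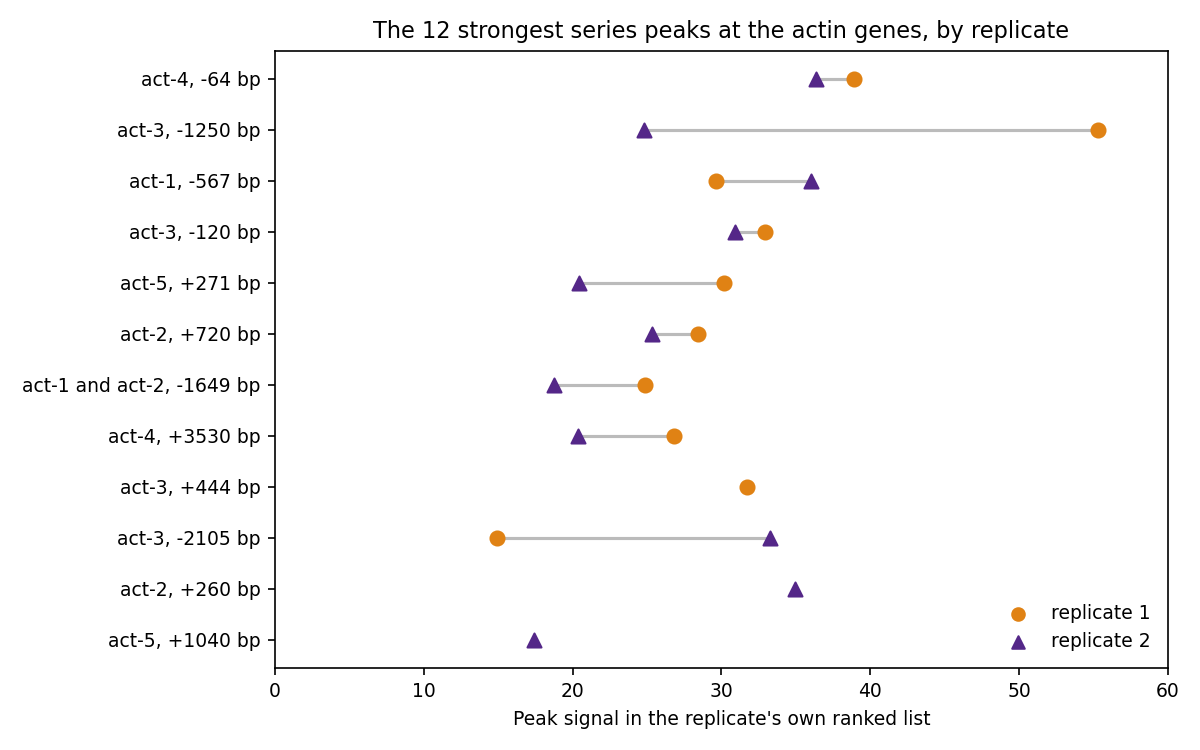
Signal in the ranked list of replicate 1 (circles) and replicate 2 (triangles) for the 12 highest series peaks at the actin genes, from the highest at the top. Labels give the gene and the distance of the series summit from its start (from the *act-1* start for the shared peak). The *act-4* promoter peak (38.9 and 36.4) and the *act-3* promoter peak (32.9 and 30.9) have near points, and the *act-3* peaks at -1250 (55.3 and 24.8) and -2105 (14.9 and 33.2) have distant ones, the first higher in replicate 1 and the second in replicate 2. The scale of signal may differ between the lists.

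GATA sites, the letters that GATA factors are known to bind, were absent within 75 bp of the highest summits of *act-4*, *act-3*, *act-2* and *act-5* and present at that of *act-1*. They lay within 75 bp of the summit in 10 of the 35 peaks (28.6%), against 26.0% of all ranked peaks and 15.5% of the thresholded peaks. At *act-4* the count was 0 of 11, in the cluster 5 of 16 and at *act-5* 5 of 8. Within 150 bp of the summit it was 3 of 11 at *act-4*, 7 of 16 in the cluster and 6 of 8 at *act-5*. The *act-5* peaks with a site within 75 bp had signals from 2.36 to 41.6 and scores from 60 to 151. Each of them overlapped a peak of 1 replicate only. The strong promoter peak of *act-4* held no GATA letters of any kind in its 151 bp, and there was no site in the 300 bp before the *act-4* start or before the *act-3* start, a stretch in which 54.9% of all protein-coding genes have one. The same stretch held 7 sites at *act-1*, 4 at *act-2* and 2 at *act-5*.

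Among the 5 peaks scoring 540 or more, 2 held a site. The *act-1* peak at -567 held AGATAG with its centre 16.5 bp from the summit. The *act-3* peak at -2105 held a pair of TGATAA sites in opposite orientation, at 12.5 and 38.5 bp from the summit, both in capitals in the sequence above. The *act-3* peaks at -1250 and -120 held none. A match of 6 letters is a description of the sequence only.

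Base composition also differed between the windows. The *act-4* promoter window was 59.6% G and C, the highest of the 5 peaks scoring 540 or more, which otherwise ran from 46.4% to 52.3%. Of these, the *act-1* peak at -567 held a site at 51.7%, and the *act-3* peak at -120 held none at 51.0%. The weaker *act-5* peak 1040 bp after the start held a site at 60.3%. The other windows with a site, at any score, ran from 32.5% to 47.0%. In the 300 bp before the start, the share was 57% at *act-4* and 48.3% at *act-3*, which held no site. It was 33.3% at *act-1*, 33% at *act-2* and 39% at *act-5*, which held sites, and the median of all protein-coding genes was 33.3%. The median over the 35 windows was 46.4%, against 38.4% over all ranked peaks and 48.3% over the thresholded peaks. Windows rich in G and C hold fewer A- and T-rich words, and the part of this in the site counts was not tested.

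In the cluster, the 3 upstream summits at -1250 and -2105 of *act-3* and at -567 of *act-1* lay inside annotated non-coding RNA genes. The first is in *T04C12.15* and *T04C12.21*, which overlap on opposite strands, the second in *T04C12.14*, and the third in *T04C12.16* and *T04C12.25*, also on opposite strands. The other 6 upstream peaks of the cluster, all 3 of *act-4* and all 4 of *act-5* did not lie in such a gene. Of all summits, 12.3% of the thresholded list and 1.73% of the ranked list lay in a gene annotated as ncRNA.

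Peaks inside the genes call for care, since reads from identical stretches cannot be assigned to one copy, and nothing in the sources used here says how such reads were treated. Of the 35 summit windows, 8 held a stretch of 36 bases that occurs elsewhere in the genome. These were 5 of 16 in the cluster, 2 of 11 at *act-4* and 1 of 8 at *act-5*. The highest *act-2* peak was among them, with 87.4% of its window in such stretches. The 5 peaks with a score of 540 or more held 0 such bases each. The search covered exact matches in the 151 bp summit windows, not the whole peaks, and the read length is not known here.

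Counts of genes with a thresholded peak were taken, with the same windows, for 6 lists of genes for muscle filaments, actin assembly, the intestine, actin-related proteins and tubulins, beside the 3.77% of all genes. For muscle thin filament genes it was 1 of 24, for thick filament and sarcomere genes 3 of 17, for genes of actin assembly and the cell cortex 5 of 51, for intestinal genes 1 of 21, for actin-related proteins 0 of 5 and for tubulins, the proteins of microtubules, 4 of 16. Median windows of these lists ran from 4531 to 9527 bp, against 4027 bp for all genes, and the part of window length in the counts was not tested. Their median strongest signals ran from 44.2 to 51.7, against 41.5 for all genes.

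The peaks behind these counts had signals from 69.3 to 122, beside 79.1 for the *act-4* promoter peak. *cap-2*, a subunit of the protein that caps the fast-growing filament end, had the highest (122, 259 bp before its start, 61.2 and 61.8 in replicates 1 and 2). *cpn-3*, of the calponin family, had 113 at 644 bp before its start. The WAVE complex genes *wve-1* (81.9) and *gex-2* (69.8), which act upstream of branched actin assembly, the nonmuscle myosin gene *nmy-2* (74.5) and the spectrin gene *unc-70* (79.3) completed the list of assembly and cortex. In muscle, *ttn-1*, a titin-like giant protein, had 88.8, *unc-52*, the perlecan of the muscle basement membrane, 84.8 and *unc-22*, the giant kinase twitchin, 76.3 within 150 bp of a tRNA gene. A peak in a gene's window may belong to another gene. Those of *tba-1* (*cox-5B*), *ben-1* (*cfap-20*) and *gex-2* (*F56A11.6*) had their summits within 150 bp of another protein-coding gene, and those of *ttn-1*, *unc-70*, *tba-7* and *unc-22* within 150 bp of ncRNA genes. The tubulin genes were *tba-1* (99.9), *ben-1* (79.8), *tba-7* (79.1) and *tba-2* (76.6). The intestinal list had *mtl-1* (69.3), which encodes a metallothionein.

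The genes whose strongest signals were most like those of *act-4* in the replicates were *znfx-1* (distance 0.0119), *unc-52* (0.0121) and *R10E8.8* (0.0122), by Euclidean distance of log2 strongest signal over the 2 replicates. The strongest series signal was 59.97 for *znfx-1*, 84.8 for *unc-52* and 53.5 for *R10E8.8*. Of the 16340 genes compared, 98 lay within a distance of 0.1.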

How the data were processed

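The 8 deposited peak lists were used, 2 from each replicate and 4 from both together, per the accompanying descriptions on assembly ce11. No aligner or caller is named in the sources used here. Chromatin fragments were 200 to 800 bp, per the labels. The signal column deposited by the authors is the height of a peak on a scale not stated. The score deposited by the authors is derived from the global IDR. Depth is unknown, since no list gives reads, so heights are ranked within a list, and heights of 2 lists set side by side may not share a scale. The labels name possible controls, and none was analysed here.

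From these, peaks overlapping a gene or the 2000 bp before its start by at least 1 bp were collected with Ensembl release 115 gene models. No peak ended beyond a chromosome of the WBcel235 assembly. Ranks are by signal. Windows of 75 bp to each side of a summit were read for GATA sites on both strands. The overlap step was tested on simulated data. Calculations used Python 3.11.15, numpy 2.4.6, pandas 2.3.3, Biopython 1.88 and matplotlib 3.10.9. The 5 genes and the gene lists were chosen with earlier results of these data known. Named genes were the 5 actins, listed genes with a thresholded peak, genes overlapped by a described peak, and the 3 genes most like the strongest actin gene. Alternatives changed the window, the list, the score and the site search.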

Additional observations from a re-analysis of the deposited data

How the results depend on the processing

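Of 46 alternatives, 23 kept their count within 1.5 times, or their signal within the spread of the replicates, and 23 did not. The *act-3* count rested on the 34 bp overlap of 1 peak. With its summit required in the window, 1000 or 500 bp upstream, or the conservative list, 1 actin gene with 1 peak was left in place of 2, *act-4*. A score of 1000 left 0, and 411 of all genes. The thresholded lists of single replicates held 0 actin genes and from 220 to 255 of all genes, in place of 753, from fewer peaks. The 35 ranked peaks at actin genes became 5 at a score of 540 or more, and 18 to 28 in the lists of single replicates. Peaks with a GATA site numbered 10 of 35 (28.6%, against 26.0% of all ranked peaks). They were 7 within 50 bp (20%, against 17.9%) and 16 of 35 within 150 bp (45.7%, against 45.8%). For GATA alone they were 22 (62.9%, against 59.7%). In the ranked lists of single replicates the share was below that of all peaks of the same list. It was 6 of 28 in replicate 1 (21.4%, against 24.91%) and 4 of 18 in replicate 2 (22.2%, against 24.96%). The direction of the small difference from all peaks thus changed with the list. Leaving out the 8 windows with sequence found elsewhere, an alternative chosen after seeing the data, left 27 peaks. The strongest signals of *act-4* and *act-5* were the same in the 4 alternatives run for each. This could not come out otherwise. Their summits, at -64 and 271, lie in every window used, and both series ranked lists give these peaks the same signal. These alternatives count among the 23 kept but tested nothing. The strongest signal of the cluster was 71.9, the *act-1* peak, with 1000 or 500 bp upstream. Without control libraries and read depth, the lists do not show how much of a height is local background. No paired analysis was possible because there is 1 group.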

Other observations

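TATAAA was looked for after the values were seen. The 300 bp before the *act-4* start held TATAAA on the gene strand, with its first base 31 bp before the start, as did *act-5* at 37 bp before its start codon. Of all protein-coding genes, 39.6% hold these letters on either strand in that stretch. *act-1*, *act-2* and *act-3* held none. Of 4 short sequences (CGCGCA, then ACGCAG, then AGCGCG, then ACGCGC, on both strands), which were picked from earlier results of these data, at least 1 lay within 75 bp of 5 of the 35 summits (14.3%), against 37.6% of the thresholded and 8.97% of the ranked peaks. The *act-3* peak at -1250 held 3 matches and the *act-4* promoter peak held 0.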
